A study of Homo sapiens with 12 samples.

Results

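The AP-1 transcription factor genes were examined together with ATF3, as 9 of the 28278 gene rows in the deposited count matrix. The members were taken by symbol and were JUN, JUNB, JUND, FOS, FOSB, FOSL1, FOSL2, ATF3 and JDP2. The group was chosen by the measured change of ATF3, which had been seen to be lower in HCQ-evolved OVCAR3 pools and not in HCQ-evolved CCL218 pools. The change of ATF3 in either cell line, its difference between the lines and its level in the control pools are therefore given as a description, with no test. The other 8 members were tested.

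AP-1 is a pair of basic leucine zipper (bZIP) proteins that sit together on DNA, usually one protein of the JUN family with one of the FOS family. FOS proteins need a partner, whereas JUN proteins can also pair with each other. Both families include classic immediate early genes, which are transcribed within minutes of growth factor signalling or stress through MAP kinases. ATF3 and JDP2 are bZIP proteins that pair with JUN proteins and often repress, and ATF3 is a known target of the integrated stress response, in which ATF4 raises transcription of genes for amino acid supply and recovery from stress.

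The study asked which transcripts differed after cancer cells had evolved resistance to hydroxychloroquine (HCQ), a lysosome-targeting drug. HCQ-evolved cells had 15 exposures of 48 h at 20 to 50 µM, were then grown without drug for 7 days, and carry passage number 15 in the labels, while control cells were passaged without drug and carry passage number 19. Cells were labelled OVCAR3, an established ovarian cancer line, or CCL218, a colorectal cancer line that the study describes as derived from HT29. Each line and treatment had a single 96-well plate, and 31 wells at a time were combined into a pool for the left (L), the middle (M) or the right (R) of it, which gave 3 pools in each of 4 groups and 12 poly(A) RNA-seq libraries. The 3 pools of a group come from the same plate and the same starting culture, so p-values measure the spread between pools of a plate. Treatment, plate and passage number cannot be told apart. In bulk RNA from pools, fewer cells that express a gene and less RNA per cell cannot be told apart either.

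Libraries held 31.1 to 60 M counts each. Levels are given as CPM, counts scaled to library size after TMM normalisation over the 12 libraries, which puts both lines on a common scale. Libraries also differed in how counts followed transcript length. The deviation of each pool was taken from the mean of its cell line over both treatments, so it also holds the treatment difference. Spearman's rho between this deviation and transcript length, over 12211 genes, was 0.556 in HCQ-evolved OVCAR3 R, 0.522 in control OVCAR3 M and -0.505 in control CCL218 L. The labels were set against marker genes. The 10 colorectal markers summed to 908 to 1120 CPM in control OVCAR3 pools, 226 to 649 CPM in HCQ-evolved OVCAR3 pools, 1110 to 1600 CPM in control CCL218 pools and 1150 to 1210 CPM in HCQ-evolved CCL218 pools. Galectin-4 (LGALS4), an intestinal lectin, was the highest of them at 730.5 ± 114 CPM in control OVCAR3 (SD, n = 3), and KRT20 had at most 4 counts in any pool. The 10 ovarian markers summed to 66.9 to 107 CPM in OVCAR3 pools and 131 to 189 CPM in CCL218 pools, with SOX17 at 0 in all 12 libraries and EMX2 at no more than 2 counts. The higher sum in CCL218 pools came from MSLN (14.3 ± 3.82 CPM in control OVCAR3 and 63.7 ± 27.2 CPM in control CCL218) and MECOM (44.3 ± 8.02 and 61.5 ± 18.2 CPM). MUC16, which encodes CA125, had the opposite order, with 22.5 ± 8.84 and 8.66 ± 5.05 CPM, and so did the means of PAX8 (12.02 ± 2.80 and 8.32 ± 2.58 CPM) and FOLR1 (4.93 ± 1.19 and 2.56 ± 0.667 CPM). WT1 was low in both (0.296 ± 0.168 and 0.268 ± 0.108 CPM), and ESR1 and CLDN16 had at most 2 and 4 counts in any pool. Of 7 colorectal markers tested between controls, 6 had a value above 0, thus higher in CCL218. The other, VIL1, had a higher mean in control OVCAR3 (242 ± 46.6 CPM) than in control CCL218 (188 ± 13.0 CPM). These markers do not settle the ovarian label, colorectal markers are present under both labels, and line names below are the labels only. The colorectal marker sum was lower in HCQ-evolved OVCAR3, where ATF3 was lower too. Most of that sum was LGALS4 (360 ± 197 CPM in HCQ-evolved OVCAR3) and VIL1 (110 ± 28.3 CPM), and both means were below control. Of the 6 colorectal markers tested there, 3 were above 0 and 3 below 0, and none passed (edgeR). In CCL218, where LGALS4 makes up most of the sum, 4 of 6 tested markers rose (edgeR, adjusted p below 0.05). The background was 6.46% of 12241 genes called in either direction. CDH17 went from 3.85 ± 1.27 CPM in control to 52.6 ± 6.67 CPM in HCQ-evolved CCL218, and GPA33 from 4.77 ± 0.834 to 34.7 ± 2.22 CPM. CEACAM5 went from 14.2 ± 1.37 to 61.0 ± 6.96 CPM and CDX2 from 23.3 ± 2.86 to 67.8 ± 4.85 CPM. The part of these markers in the results below was not tested. Fibroblast markers stayed between 2.98 and 4.76 CPM in sum. Epithelial markers summed to 10700 CPM or more in every pool. Blood and endothelial markers summed to 1330 to 2780 CPM, nearly all of it lysozyme (LYZ), which epithelial cells can also express.

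Promoter windows were read to show the AP-1 and CRE-type motifs that stand in front of the members themselves. RefSeq windows on GRCh38.p14 run from 250 bases before to 50 bases after a start site, and 8 of the 9 members had at least 1 window. FOSL1 had no entry. Searched on both strands were TGANTCA, which takes in the AP-1 element TGACTCA, the CRE TGACGTCA, and TGACATCA, a CRE-type element with a single base changed. No window of a member held more than 1 match, so no matches overlapped. TGANTCA was present in 7.71% of 35116 windows, TGACGTCA in 1.85%, TGACATCA in 2.61%, and any of these in 11.8%. Matches were found in the windows of ATF3, JUN, JUND and FOSL2. The first 3, whose match lies before the start site, are printed here as 100 bases around the match. ATF3 and JUN share TGACATCA, and JUND has the full CRE. Sequences are given 5′ to 3′ on the strand of the gene, with the match in capitals.
ATF3, chr1:212565234-212565333, plus strand: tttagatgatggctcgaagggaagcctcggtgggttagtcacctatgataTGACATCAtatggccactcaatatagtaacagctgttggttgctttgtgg
JUN, chr1:58784061-58784160, minus strand: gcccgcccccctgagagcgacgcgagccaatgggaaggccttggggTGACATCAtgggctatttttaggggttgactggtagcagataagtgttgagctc
JUND, chr19:18281769-18281868, minus strand: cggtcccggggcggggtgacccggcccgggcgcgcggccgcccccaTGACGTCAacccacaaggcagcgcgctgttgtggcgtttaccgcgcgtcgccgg
The match began at -123 relative to the start site in ATF3, at -67 in JUN and at -200 in JUND. FOSL2 had TGACTCA at +4. No match was found in the windows of FOS, FOSB, JUNB and JDP2, nor in a second ATF3 window at a start site farther downstream. A match is only a run of letters, and binding was not measured here. Members with and without a match are both among those that fell in OVCAR3 (JUN with, FOSB without). A link between a match and a change of expression was not tested.

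In OVCAR3, JUN, FOSB and FOSL1 fell in HCQ-evolved pools, and ATF3, the gene that chose the group, was 31.1-fold lower. These were 3 of the 8 tested members below control at an adjusted p under 0.05, against 1.21% of all 12204 genes tested. None of the 8 rose, even at an unadjusted p under 0.05. Another 2 members, FOS and JUND, were lower at an unadjusted p under 0.05 only, against 7.87% of all genes. Pools did not overlap for 6 of the 8, all of them lower, against 12.7% of genes that were lower without overlap. The median log2 fold change of the 8 was -0.97, beside 0.02 over all genes.

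**Figure D1:**
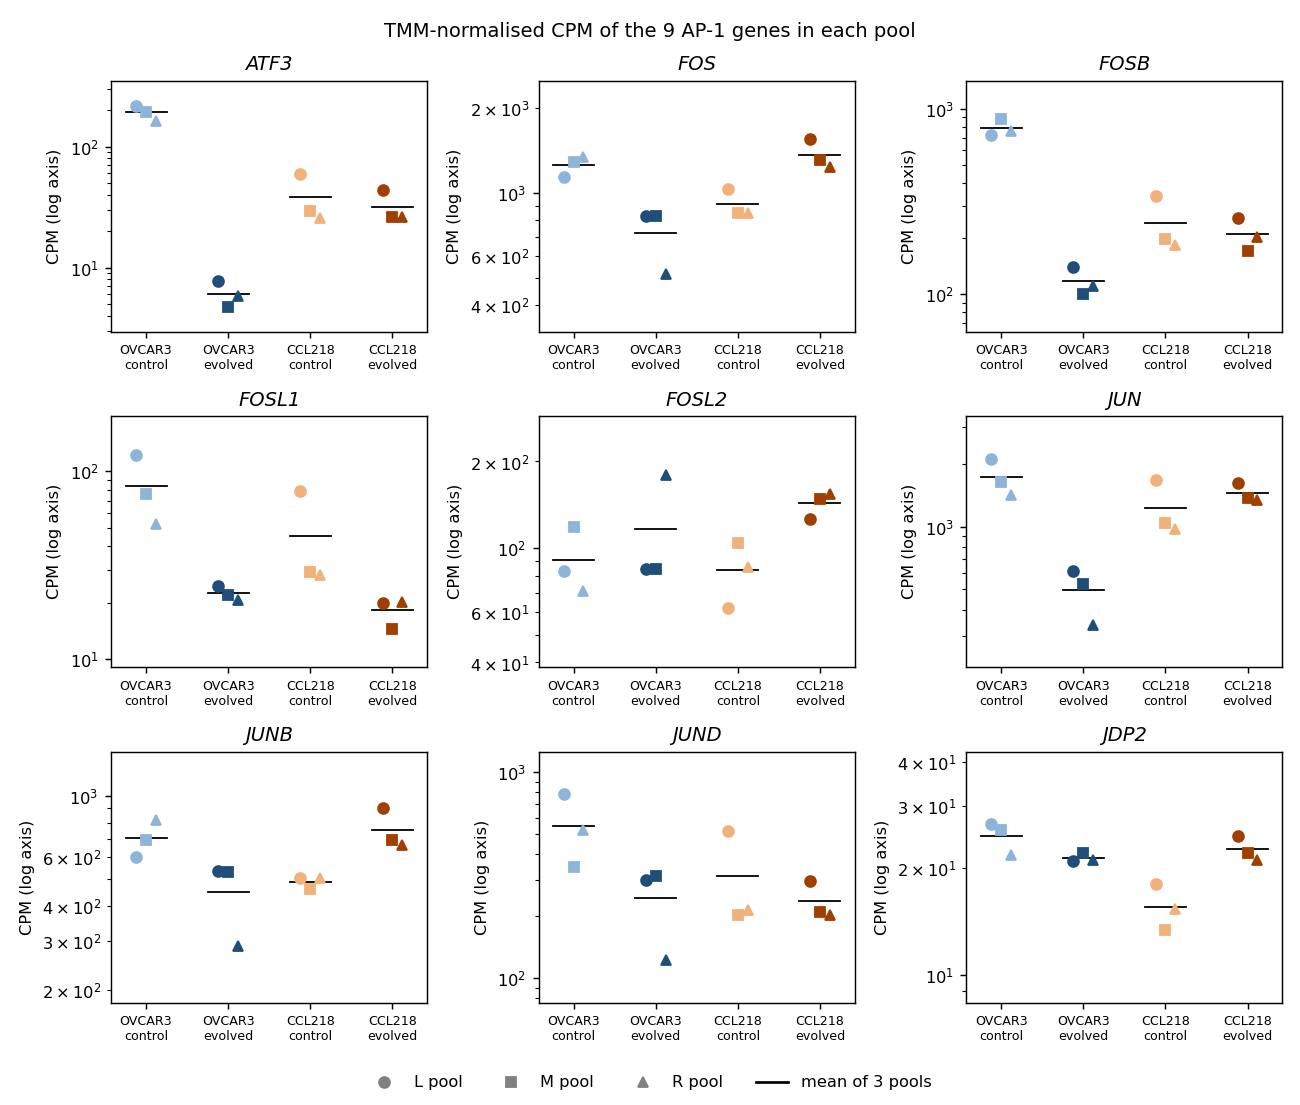
TMM-normalised CPM (log axis) of each of the 9 genes in the 12 pools, with circles for L, squares for M and triangles for R pools and a line at the mean of 3 pools. ATF3 lies between 164 and 218 CPM in control OVCAR3 pools and between 4.71 and 7.73 CPM in HCQ-evolved OVCAR3 pools, while the CCL218 groups overlap.

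The JUN family supplies the partner that every FOS protein needs, and JUN is its strongest activator. JUN (minus strand of chromosome 1 from 58776845 to 58784048, a single exon, GENCODE 44 on hg38) was at 2116, 1641 and 1412 CPM in control OVCAR3 L, M and R and at 611, 533 and 338 CPM in the matching HCQ-evolved pools. The groups were well apart, with the R pool lowest in both. The log2 fold change was -1.79 (SE 0.28, 95% interval -2.44 to -1.14), a 3.45-fold difference with an adjusted p of 0.0289 (edgeR). JUNB (plus strand of chromosome 19 from 12791486 to 12793315), a weaker activator that can hold JUN back, was at 599, 694 and 820 CPM against 535, 532 and 287 CPM. Its pools did not overlap, but the difference of -0.63 did not pass (95% interval -1.28 to 0.02, adjusted p = 0.319). JUND (minus strand of chromosome 19 from 18279694 to 18281622), the member usually expressed in resting cells, was at 786, 347 and 522 CPM against 299, 313 and 122 CPM. Its log2 fold change was -1.15 (SE 0.41, adjusted p = 0.218).

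In the FOS family, FOSB and FOSL1 fell, FOS had non-overlapping lower pools without passing, and FOSL2 overlapped between groups. FOSB (plus strand of chromosome 19 from 45467995 to 45475179), a partner of JUN proteins whose isoforms can persist in cells, was at 719, 883 and 763 CPM in control OVCAR3 L, M and R and at 140.3, 100.5 and 111 CPM in HCQ-evolved pools. The lowest control pool was thus far above the highest HCQ-evolved pool. Its log2 fold change of -2.73 (SE 0.22, 95% interval -3.23 to -2.23, adjusted p = 0.00604) was 6.65-fold and stood at rank 47 from the lowest among 12204 genes. FOSL1 (minus strand of chromosome 11 from 65892049 to 65900573), which encodes FRA1, a FOS protein that lacks the strong activation domain and is high in invasive tumour cells, was at 123, 76.1 and 52.6 CPM against 24.6, 22.1 and 20.7 CPM. Control pools differed more among themselves than HCQ-evolved pools did. The difference was -1.88 (SE 0.31, adjusted p = 0.033), or 3.67-fold. FOS (plus strand of chromosome 14 from 75278826 to 75282230) was at 1135, 1284 and 1345 CPM against 828, 827 and 516 CPM, a log2 fold change of -0.78 (SE 0.24, 95% interval -1.34 to -0.23, adjusted p = 0.152). FOSL2 (plus strand of chromosome 2 from 28392448 to 28417317), which encodes FRA2, was at 83.4, 118 and 71.0 CPM against 84.4, 84.7 and 179 CPM. Its groups overlapped, with HCQ-evolved R above every other OVCAR3 pool, and without that pool its log2 fold change turned from 0.38 to -0.10.

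ATF3 (plus strand of chromosome 1 from 212565334 to 212620777) was at 218, 194.5 and 164 CPM in control OVCAR3 L, M and R, from 6189 to 8847 counts. In HCQ-evolved OVCAR3 it was at 7.73, 4.71 and 5.78 CPM, from 244 to 442 counts, so every pool still held well over 3 counts, the floor taken here for detection. The log2 fold change, a description only, was -4.96, the fourth lowest of the 12204 genes. It stayed between -5.17 and -4.80 when each pool was left out in turn. JDP2 (plus strand of chromosome 14 from 75427716 to 75474111), the closest relative of ATF3 among the members, was at 26.7, 25.6 and 21.8 CPM against 21.0, 22.03 and 21.1 CPM. Its groups overlapped and its log2 fold change was -0.19 (95% interval -0.59 to 0.21, adjusted p = 0.639).

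Few of these calls were steady to the loss of a pool. Without control L or control R none of the 8 members passed, and FOSB then had an adjusted p of 0.0566 and 0.0516. Without control M, HCQ-evolved L or HCQ-evolved M only FOSB passed, while without HCQ-evolved R JUN, FOSB and FOSL1 all did. With the trend of each library with length and GC content removed as an offset, 5 of 8 fell, against 3.69% of genes, with FOS (-0.72, adjusted p = 0.0417) and JUND (-0.93, adjusted p = 0.021) added.

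**Figure D2:**
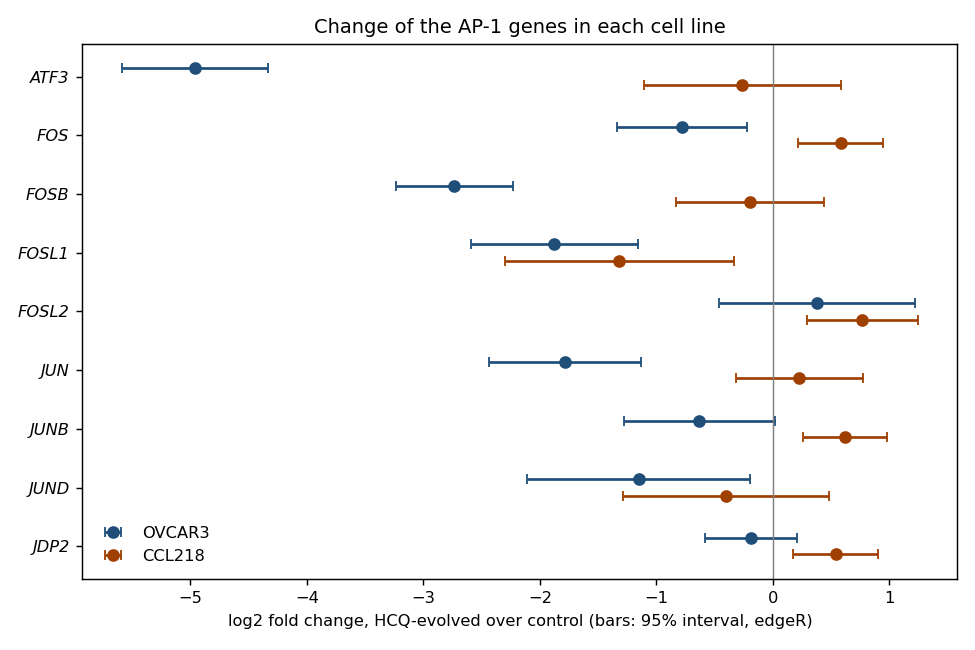
Log2 fold change of HCQ-evolved over control pools for each of the 9 genes in OVCAR3 (blue) and CCL218 (orange), with 95% intervals from edgeR (3 pools per group). The OVCAR3 interval of FOSB runs from -3.23 to -2.23, and its CCL218 interval crosses 0. ATF3, which chose the group, is at -4.96 in OVCAR3 and -0.26 in CCL218, and its bars are a description with no test.

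In CCL218 none of the 8 members passed at an adjusted p under 0.05 with no term for plate position (edgeR), against 6.46% of 12241 genes, although 5 had an unadjusted p under 0.05, against 25.2% of genes. DESeq2 called 5, against 17.7% of genes. After removal of group means, CCL218 pools of the same plate position correlated at 0.506 in L, 0.233 in M and 0.195 in R. In the paired fit, with a replicate block for position, FOS, JUNB, FOSL2 and JDP2 rose, against 7.82% of genes. FOSL1 fell, against 6.43% of genes. The same 5 genes were those whose pools did not overlap, 4 higher and 1 lower, against 18.6% and 17.3% of genes. The median of the 8 was 0.38, beside -0.02 over all genes.

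Among JUN genes, JUNB was at 504, 461.5 and 504 CPM in control CCL218 L, M and R and at 900.3, 695 and 662 CPM in HCQ-evolved pools. Every HCQ-evolved pool was above every control pool. The log2 fold change was 0.62 (SE 0.15, adjusted p = 0.0602), or 0.60 (adjusted p = 0.0308) with the replicate block. JUN was at 1684, 1039 and 975 CPM against 1616, 1379 and 1345 CPM, so that control L stood above all other CCL218 pools, and the difference of 0.23 did not pass (95% interval -0.32 to 0.77, adjusted p = 0.561). JUND was at 519, 203 and 215 CPM against 297, 211 and 204 CPM, again with control L highest (-0.40, adjusted p = 0.529).

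Among FOS genes, FOS was at 1033, 847 and 852 CPM in control CCL218 and at 1555, 1308 and 1235 CPM in HCQ-evolved pools, with no overlap. Its log2 fold change was 0.58 (SE 0.16, adjusted p = 0.0718, and 0.0322 with the replicate block). FOSL2 was at 61.7, 104 and 86.1 CPM against 127, 148 and 155 CPM. Each HCQ-evolved pool exceeded the control pool of its own position. The difference was 0.77 (SE 0.20, adjusted p = 0.0703), or 0.79 (adjusted p = 0.00983) with the block. FOSL1 was at 79.0, 29.3 and 28.0 CPM against 20.03, 14.5 and 20.2 CPM, a log2 fold change of -1.32 (SE 0.42, adjusted p = 0.11), or -1.16 (adjusted p = 0.0192) with the block. FOSL1 was thus the only member whose HCQ-evolved pools lay below control pools without overlap in both lines. FOSB was at 341, 198 and 184 CPM against 258.5, 172 and 203 CPM and overlapped (-0.19, 95% interval -0.83 to 0.44, adjusted p = 0.675).

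ATF3 was at 59.1, 29.55 and 25.5 CPM in control CCL218 L, M and R and at 43.4, 26.0 and 26.1 CPM in HCQ-evolved pools. The L pool was highest in both groups, and the groups overlapped. The log2 fold change, a description only, was -0.26, and 0.20 without control L. JDP2 was at 17.99, 13.3 and 15.4 CPM against 24.8, 22.1 and 21.1 CPM. Its groups were apart, with a difference of 0.54 (SE 0.15, adjusted p = 0.0884, and 0.0395 with the replicate block). Control L, the pool with the strongest trend with length in this line, decided much of this comparison. Without it 6 of the 8 members passed, against 25.2% of genes, which were FOS, FOSL1, FOSL2, JUN (0.51, adjusted p = 0.00706), JUNB and JDP2, and the log2 fold changes of FOSB and JUND turned to 0.14 and 0.17. Without any other pool none passed.

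The change of 3 members differed between the lines. In one fit of the 12 libraries, HCQ-evolved over control was higher in CCL218 than in OVCAR3 for FOSB by 2.56 on the log2 scale (SE 0.35, 95% interval 1.79 to 3.33, adjusted p = 0.00613), for JUN by 2.03 (SE 0.38, 95% interval 1.19 to 2.88, adjusted p = 0.0357) and for FOS by 1.38 (SE 0.28, 95% interval 0.76 to 1.995, adjusted p = 0.0499977). The background was 0.69% of 12613 genes with a higher change in CCL218. All 8 tested members had a positive difference, with a median of 1.02 beside -0.03 over all genes, and 5 had an unadjusted p under 0.05, against 5.41% of genes. FOSL1 (0.59, adjusted p = 0.985), FOSL2 (0.42, adjusted p = 0.999), JUND (0.77, adjusted p = 0.937), JUNB (1.26, adjusted p = 0.126) and JDP2 (0.75, adjusted p = 0.154) did not pass. The same difference for ATF3 was 4.72, a description only. FOSB passed whichever pool was left out (adjusted p from 0.0018 to 0.024). FOS passed only without HCQ-evolved OVCAR3 R or control CCL218 L and failed with the replicate block (adjusted p = 0.185), and JUN passed only without HCQ-evolved OVCAR3 L, HCQ-evolved OVCAR3 R or control CCL218 L.

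The lines also differed before drug. FOSB was lower in control CCL218 than in control OVCAR3 by 1.71 on the log2 scale (log2 fold change -1.71, SE 0.25, adjusted p = 0.00348), and JDP2 was lower too (-0.67, SE 0.15, adjusted p = 0.0295). These were 2 of 8 members, against 2.07% of all genes that were lower. All 8 had a value below 0, with a median of -0.60, and the control pools of 4 did not overlap, against 9.13% of genes. ATF3 was 5.05-fold lower in control CCL218, with 25.5 to 59.1 CPM against 164 to 218 CPM, again as a description. JDP2 did not pass without control OVCAR3 L, control OVCAR3 M, control CCL218 M or control CCL218 R (adjusted p up to 0.158), and FOSL1 passed in addition without control CCL218 L (adjusted p = 0.0184). The comparisons share control pools and are not independent of each other.

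Levels of different genes were compared per kilobase of union exon length. In control OVCAR3 the order was JUN (475.5 ± 99.1 CPM per kilobase), FOS (393.8 ± 33.8), JUNB (384.8 ± 60.4), JUND (285.9 ± 115), FOSB (142 ± 15.3), ATF3 (48.0 ± 6.73), FOSL1 (44.4 ± 18.9), FOSL2 (12.7 ± 3.39) and JDP2 (3.95 ± 0.411), each as mean and SD of 3 pools. The first 4 overlapped in their pools and so did ATF3 with FOSL1, while FOSB, FOSL2 and JDP2 stood apart from their neighbours. In HCQ-evolved OVCAR3 JUNB (246.6 ± 77.7 CPM per kilobase) and FOS (227 ± 56.4) came first, followed by JUN (136 ± 38.7) and JUND (127 ± 55.2), and the ranges of these 4 overlapped. ATF3 at 1.52 ± 0.382 CPM per kilobase was then the lowest of the 9, below JDP2 at 3.42 ± 0.0886 without overlap. In CCL218 ATF3 ranked the eighth of 9 in both groups, with 9.52 ± 4.60 CPM per kilobase in control and 7.96 ± 2.50 in HCQ-evolved pools, and its pools overlapped with those of the gene next above it, FOSL2 in control and FOSL1 in HCQ-evolved pools. This order depends on the length used. With the canonical transcript length of each gene (chosen after seeing the data) FOS at 596 ± 51.1 CPM per kilobase had a higher mean than JUN at 529 ± 110 in control OVCAR3, with overlap, and ATF3 (84.4 to 112) no longer overlapped with FOSL1 (30.9 to 72.1). On that scale ATF3 was still the lowest by its mean in HCQ-evolved OVCAR3, but its pools (2.43 to 3.98) overlapped with those of JDP2 (3.91 to 4.10), and in CCL218 ATF3 was the seventh in both groups.

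Summed over the 9 genes, the level was 1940, 1683 and 1750 CPM per kilobase in control OVCAR3 L, M and R and 931, 906 and 536 in HCQ-evolved OVCAR3. In CCL218 the sum was 1463, 985 and 992 in control and 1670, 1349 and 1305 in HCQ-evolved pools. The OVCAR3 groups were apart and the CCL218 groups overlapped through control L. JUN made up 26.4% of the sum in control OVCAR3 and 17.2% in HCQ-evolved OVCAR3, against 29.3% and 27.8% in CCL218. FOS went from 22.1% to 28.9% and JUNB from 21.7% to 30.9% in OVCAR3, while FOSB went from 7.99% to 2.81% and ATF3 from 2.68% to 0.202%. These shares are descriptions, since ATF3 enters them, and with canonical transcript lengths in place of union lengths the shares of ATF3 in the OVCAR3 groups were 4.55% and 0.35%.

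**Figure D3:**
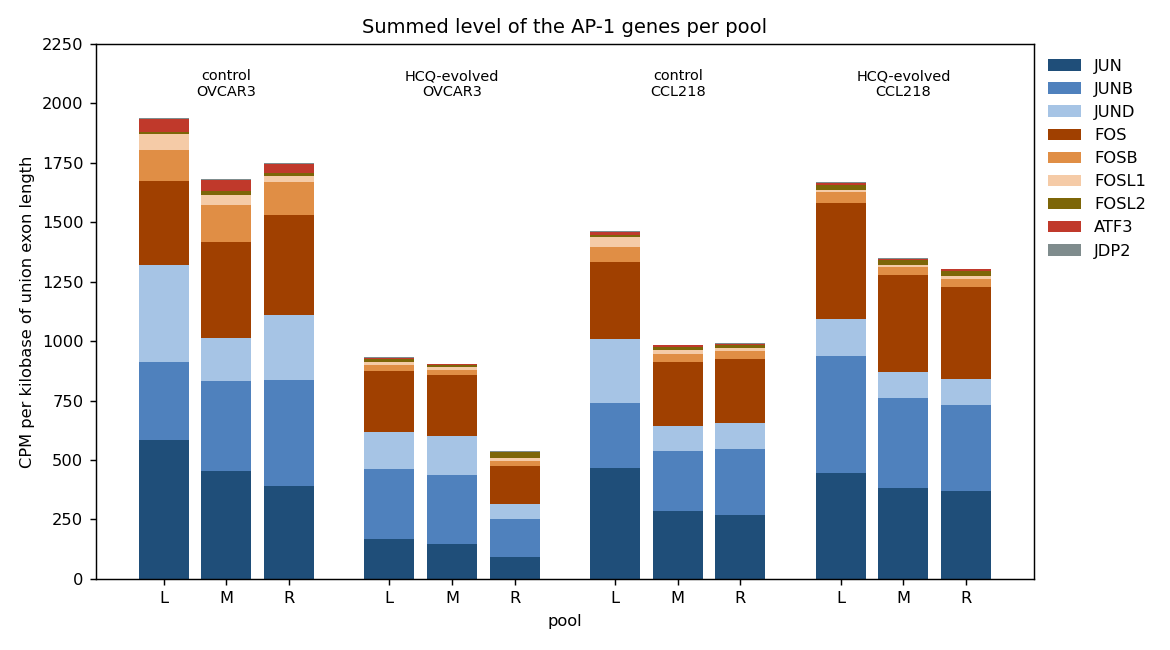
CPM per kilobase of union exon length stacked over the 9 genes in each pool, from 0. The bars of control OVCAR3 reach 1683 to 1940 and those of HCQ-evolved OVCAR3 536 to 931, and JUN, JUNB, JUND and FOS fill most of every bar.

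The genes whose levels followed ATF3 most closely over the 12 libraries were mostly immediate early genes. FOSB ranked first of 12612 genes by Pearson correlation of log2 CPM with ATF3 (r = 0.97), followed by HBEGF (0.968), EGR4 (0.951), NR4A2 (0.95), CCN1 (0.947), ARC (0.947), PPP1R15A (0.936) and H2BC21 (0.935). The 12 points share groups and libraries, and the low HCQ-evolved OVCAR3 pools weigh heavily, so r is a description with no test. HBEGF, which encodes an EGF receptor ligand, was at 55.95 ± 3.06 CPM in control and 3.73 ± 0.277 CPM in HCQ-evolved OVCAR3, and at 12.5 ± 0.778 and 9.01 ± 0.844 CPM in CCL218. PPP1R15A, which encodes GADD34, a subunit that restores translation after stress, was at 666 ± 158 and 197 ± 51.6 CPM in OVCAR3 and at 364.5 ± 126 and 309.9 ± 33.7 CPM in CCL218. The most opposite genes were the nucleoporins NUP43 (-0.944) and NUP107 (-0.941) and the kinetochore gene ZWILCH (-0.935). NUP107 was at 59.0 ± 4.99 CPM in control and 89.4 ± 6.98 CPM in HCQ-evolved OVCAR3. Among the members JUN ranked 38 (r = 0.876), FOSL1 239, FOS 533, JUND 542, JUNB 1198, JDP2 3706 and FOSL2 9316 (r = -0.298). By Spearman's rho FOSB remained first (0.965), and 3 of the first 8 genes were shared.

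Genes around AP-1 were taken from 6 lists, each described by counts and a median. The immediate early genes outside AP-1 had values below 0 throughout in OVCAR3. Of 31 tested, 14 fell, against 1.21% of all genes, and none rose, 28 were lower at an unadjusted p under 0.05, against 7.87% of all genes, and all 31 had a value below 0, with a median of -1.16 beside 0.02 over all genes. HBEGF fell by 3.89 on the log2 scale (SE 0.19, adjusted p = 0.000646). NR4A1, an orphan nuclear receptor, fell from 254 ± 40.5 to 39.9 ± 6.56 CPM (log2 fold change -2.65). DUSP5, a phosphatase of ERK, and BTG2, an antiproliferative gene, fell too (-2.70 and -2.57). EGR3, a zinc finger factor, had 110 to 169 counts in control OVCAR3 pools and 0 to 2 counts in HCQ-evolved pools, under the floor of 3 counts, so no fold is given. EGR2, EGR4, CCN1, CCN2, NR4A2, ARC, TRIB1, KLF2 and PPP1R15A were the other 9 that fell. Without control L, control R, control M or HCQ-evolved M the count was 2, 2, 6 and 6, without HCQ-evolved L it was 9, and without HCQ-evolved R it was 20. Calls over all genes moved between these fits as well. The share of all genes called is not given for each of these fits, so how these counts moved is not read as a result about the list.

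In CCL218 the immediate early genes had no common direction. KLF4, a factor of epithelial differentiation, rose by 1.43 (from 19.4 ± 1.49 to 52.4 ± 4.05 CPM, adjusted p = 0.00253) and RHOB, a small GTPase, by 0.84, none fell, and 17 of 31 were above 0 (median 0.08). These 2 of 31 were no larger a share than the 6.46% of all genes called in either direction. With the replicate block 8 passed in either direction, against 7.82% of all genes higher and 6.43% lower, and without control L 19 did, against 25.2% of all genes. In the difference between lines 14 of 31 passed, all higher in CCL218, against 0.69% of all genes, and all 31 were above 0 (median 1.69). Between the control pools 8 of 31 were already lower in CCL218 than in OVCAR3, against 2.07% of all genes, with a median of -0.72. Both comparisons share these control pools. JUN, FOS and FOSB are themselves immediate early genes, and the list holds the other genes of that class.

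The integrated stress response list, which holds genes upstream of ATF3 and others that the response induces beside it, had calls in both directions in OVCAR3. DDIT4, an inhibitor of mTORC1, rose by 1.56 (SE 0.17, from 159 ± 1.72 to 465 ± 59.8 CPM, adjusted p = 0.0101) and PPP1R15A, also on the immediate early list, fell by 1.74 (SE 0.26, adjusted p = 0.0272). Of 24 genes tested 1 rose and 1 fell, the fall against 1.21% of all genes that fell. At an unadjusted p under 0.05 (edgeR) 9 were lower, against 7.87% of all genes. Another 3 were higher, beside 16.2% of all genes in either direction. In the list 17 were below 0, and the median was -0.38. ATF4, the factor that induces ATF3, did not pass (-0.70, adjusted p = 0.218), nor did DDIT3, which encodes CHOP (-1.22, adjusted p = 0.119). Both ATF4 and DDIT3 were added after their values were seen. In CCL218 VLDLR, a lipoprotein receptor, rose by 2.04 and DDIT4 by 1.90, none fell, and the median was 0.11. These were 2 of 24, against 6.46% of all genes in either direction. No gene of this list passed in the difference between lines (edgeR), where 8 of 24 were higher in CCL218 at an unadjusted p under 0.05, against 5.41% of all genes. Between the control pools 8 of 24 were already lower in CCL218 than in OVCAR3 (adjusted p under 0.05, edgeR), against 2.07% of all genes, with a median of -0.68.

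The kinases and transcription factors that feed into AP-1 rarely passed. Of 31 MAP kinase inputs none passed in OVCAR3 (edgeR), where 8 had an unadjusted p under 0.05, against 16.2% of all genes in either direction, and MAPK12 had the smallest p (0.86, adjusted p = 0.101). In CCL218 RPS6KA4, which encodes the kinase MSK2, fell by 0.69 (adjusted p = 0.0275) and MAP2K6, an activator of p38, fell by 1.04 (adjusted p = 0.0318). These 2 of 31 were no larger a share than the 6.46% of all genes called in either direction. None of the 10 genes of JUN and FOS protein turnover passed in either line, with ITCH (0.41) and DDB1 (-0.40) nearest. None had an unadjusted p under 0.05 either, against 16.2% of all genes in OVCAR3 and 25.2% in CCL218. Of 29 other bZIP genes none passed in OVCAR3, where CREB3L1 was nearest (-1.12, adjusted p = 0.0676) and 7 had an unadjusted p under 0.05, against the same 16.2%. In CCL218 3 of the 29 rose, against 6.46% of all genes in either direction. Among them NFIL3, a repressor of the circadian and cytokine programmes, rose by 0.85 (adjusted p = 0.0155) and MAFF, a small MAF protein, rose by 0.72 (adjusted p = 0.0352).

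Of the known AP-1 target genes, 1 passed in OVCAR3. Among 28 tested, CCND1, which encodes cyclin D1, fell by 1.09 (SE 0.19, adjusted p = 0.038), against 1.21% of all genes that fell. None rose, and 16 were above 0 with a median of 0.06. In CCL218 5 of 26 rose and 3 fell, against 6.46% of all genes in either direction, with a median of 0.30. SERPINE2, a protease inhibitor, rose by 1.53, VEGFA, an angiogenic growth factor, by 1.54 (from 164 ± 16.0 to 476 ± 42.4 CPM) and LAMB3, a laminin chain, by 1.03, while CD44, a hyaluronan receptor, fell by 0.73 and the chemokine CXCL8 fell by 0.95. In the difference between lines 3 of 29 passed, all higher in CCL218, against 0.69% of all genes. AP-1 protein, phosphorylation and binding were not measured, so only transcripts can be compared.

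**Figure D4:**
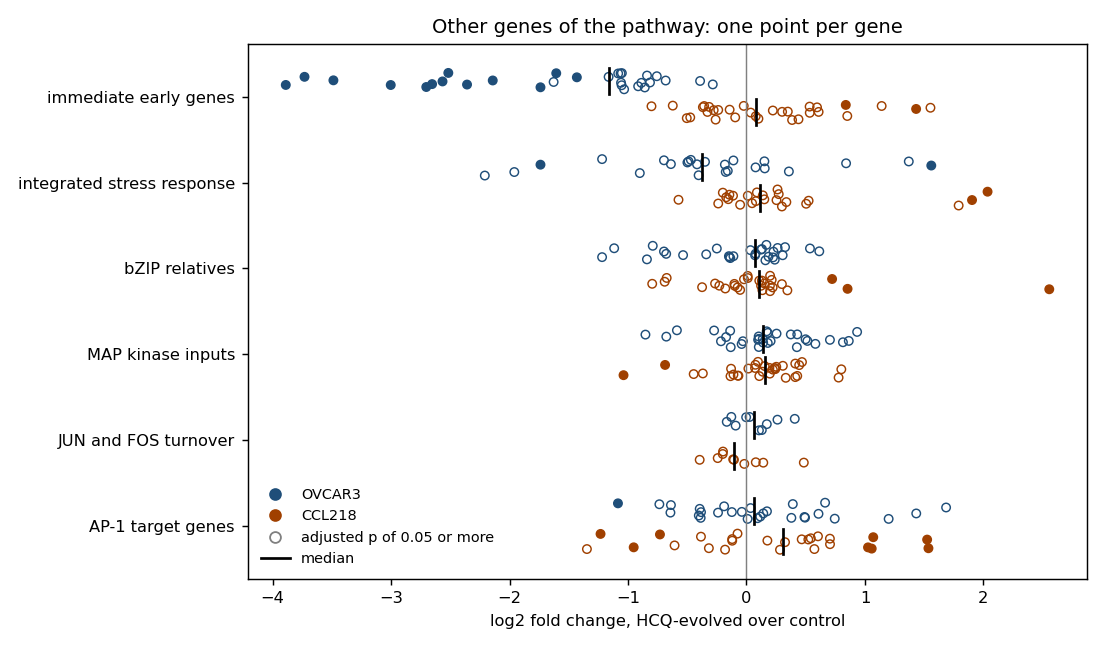
Log2 fold change of HCQ-evolved over control for each gene of 6 lists (1 point per gene, filled when the adjusted p from edgeR was under 0.05), OVCAR3 in blue above CCL218 in orange, with a line at the median of the list. EGR3 in OVCAR3, with 0 to 2 counts in HCQ-evolved pools, is not drawn, and the immediate early genes sit left of 0 in OVCAR3 (median -1.16) and around 0 in CCL218 (median 0.08).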

How the data were processed

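Poly(A) RNA from 12 pools was sequenced as paired reads. Per the study's methods and processing notes, the authors aligned reads to hg38 with STAR, removed duplicates with RmDup, counted reads per gene with featureCounts and deposited raw counts. Duplicate removal without molecular identifiers can lower counts of short, abundant transcripts such as JUN and FOS. The strand setting of the counting is not given in the sources used here. JUNB overlaps HOOK2 by 259 bases and JDP2 overlaps JDP2-AS1 by 26 bases, both on the opposite strand. Reads there could not be told apart if the counting ignored strand. HOOK2 has a row in the count matrix and JDP2-AS1 has none. There were 0 columns without a sample.

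A gene entered a fit when 3 or more of its libraries reached 1 CPM, and was tested by the edgeR quasi-likelihood F test, version 4.0.16 (TMM, robust, legacy mode) in R 4.3.3, each line alone, with Benjamini-Hochberg adjustment over all genes tested and a threshold of 0.05. The difference between lines and the comparison of controls came from a fit of all 12 libraries. All 9 members passed the filter in every fit. The members and lists were chosen with earlier results of these data known. Named from each list were the genes past the threshold in either line, at most 5 per line by smallest p, or else the gene of smallest p, besides the 8 genes of highest and 3 of lowest correlation with ATF3 (log2 CPM, prior count 2). Other genes that fell were named after their values were seen. A gene that this rule names is not reported here.

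Plate position could pair control and HCQ-evolved pools of a line. After removal of group means, paired pools correlated over genes at 0.506 (L), 0.233 (M) and 0.195 (R) in CCL218. In OVCAR3 they correlated at 0.401, -0.665 and -0.478, and OVCAR3 was not treated as paired. For CCL218 the paired fit, with a replicate block for position, is therefore given beside the fit without it. This choice was made from the data, and the correlations of a line are not independent, since its pools are centred on group means. In OVCAR3 FOSB alone of the tested members passed with such a block. The main CCL218 values, including the plotted log2 fold changes and the list counts, come from the fit without the block.

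Gene coordinates, exon lengths and GC content were read from the GENCODE 44 annotation of hg38, which matched 25763 of 28278 symbols (91.1%), and promoters from RefSeq. Alternatives were DESeq2 1.42.0, limma 3.58.1 voom, DESeq2 size factors, other filters, a replicate block, a length and GC offset, both together, a joint fit, other lengths and correlations, and leaving out each pool. Scripts were tested on simulated counts. Intervals and floors cover counting error or the spread between pools only.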

Additional observations from a re-analysis of the deposited data

Results flagged for a closer look

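The HCQ-associated change of 3 AP-1 genes differed between cell lines in a test of the difference itself (edgeR, 12 libraries, adjusted over all genes). For FOSB the difference of CCL218 over OVCAR3 was 2.56 on the log2 scale (adjusted p = 0.00613), from -2.73 in OVCAR3, where all HCQ-evolved pools lay below control pools, and -0.19 in CCL218. For JUN it was 2.03 (adjusted p = 0.0357), from -1.79 and 0.23. For FOS it was 1.38 (adjusted p = 0.0499977), from -0.78 and 0.58, with HCQ-evolved pools lower than control in OVCAR3 and higher in CCL218 without overlap. Groups of 3 pools are too small to test a single pool as an outlier.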

How the results depend on the processing

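Counts of genes called moved most. In OVCAR3, 227 genes became 549 with no filter, 142 at 5 CPM, 1105 with DESeq2, 81 with the replicate block, 1074 with the length and GC offset, 442 with both, 1165 in a fit of 12 libraries, and 3 to 557 without 1 pool. In CCL218, 791 became 2172 with DESeq2, 1744 with the replicate block, 2362 with the offset, 2080 with both, and 102 to 3047 without 1 pool (3047 without control L). In the difference between lines, 110 became 69 at 5 CPM, 463 with DESeq2, 35 with the replicate block, 463 with the offset, and 38 to 212 without 1 pool. Between controls, 431 became 925 with DESeq2, 743 with the offset, 818 with block and offset, and 181 to 790 without 1 pool.

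Of the 8 tested members, the 3 called in OVCAR3 became 1 with the replicate block (FOSL1 then had an adjusted p of 0.0507 and JUN of 0.0519), 5 with the offset, and 0 to 3 without 1 pool. The 0 called in CCL218 became 3 with no filter, 5 with DESeq2, 5 with the replicate block, 4 with the offset, 4 with both, and 0 to 6 without 1 pool. Calls over all genes moved in the same fits, so how these counts moved is not read as a result about the members. Of all genes, 3.69% fell with the offset in OVCAR3. In CCL218 17.7% passed with DESeq2 and 25.2% without control L. The 3 whose change differed between lines became 5 with DESeq2 and 1 to 3 without 1 pool. FOS lost that call at 5 CPM (adjusted p = 0.0603). The 2 that differed between controls became 1 with no filter and 1 to 3 without 1 pool. Without 1 pool, FOSL2 in OVCAR3 ran from -0.10 (without HCQ-evolved R) to 0.62, and in CCL218 ATF3 ran from -0.55 to 0.20, FOSB from -0.36 to 0.14 and JUND from -0.63 to 0.17, each turning without control L. Between controls FOSL2 ran from -0.30 to 0.12, turning without control OVCAR3 M (0.12) or control CCL218 L (0.06). No other member turned. The replicate block changed no other member's call in OVCAR3 or between controls, and in the difference it changed that of FOS alone. The cause was not tested.

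Immediate early genes called in OVCAR3 (14) became 26 with DESeq2, 24 with the offset, 26 in the fit of 12 libraries, and 2 to 20 without 1 pool. In CCL218 the 2 became 6 with no filter, 11 with DESeq2, 4 with voom, 8 with the replicate block, 11 with the offset, 11 with both, and 1 to 19 without 1 pool. The counts of both lines moved together with the calls over all genes given above. How these counts moved is not read as a result about the list. In the difference between lines the 14 became 23 with DESeq2, 9 with the replicate block, 26 with the offset, and 9 to 17 without 1 pool, with a median of 1.66 to 1.95. The bZIP median in OVCAR3 (0.0724) became -0.0692 with no filter and -0.0475 to 0.0783 without 1 pool, and in the difference it was 0.0485 to 0.211. The turnover median in CCL218 was -0.208 to 0.00619, above 0 only without control L, and that of AP-1 targets in the difference -0.0702 to 0.23.

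With canonical lengths the share of ATF3 was 4.55%, 0.35%, 1.39% and 0.931% in control and HCQ-evolved OVCAR3 and CCL218, and that of JUN 16.2% and 25.7% in the HCQ-evolved groups of these lines. Spearman's rho kept 3 of the 8 genes most like ATF3. A fit that leaves a group with 2 pools rests on few residual degrees of freedom. Every member held at least 244 counts in every pool, so the precision here is set by the spread between pools.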
